A study of Bos taurus with 12 samples.

Results

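Complement and pattern recognition proteins of cattle (Bos taurus) precursor adipocytes were followed here through 8 genes. They were chosen by name, with earlier results of these data known. They include the complement proteases C1R and C1S, their inhibitor SERPING1, the central components C3 and CFB, and the membrane regulator CD55. The others are the secreted pattern recognition protein PTX3 and its matrix partner TNFAIP6. All 8 symbols were found among the 29240 genes of the raw count table, and all 8 passed the filter on low counts that left 16300 genes to test. Transfected cells were collected after 48 h and gave 12 RNA libraries, 3 for each of 4 groups. The si cells had received the agent of an interference assay, labelled si, whose target the labels do not name, and si_NC was its negative control. The OE cells had received pcDNA3.1-HGFAC, a plasmid with the coding sequence of HGFAC, which encodes the activator of hepatocyte growth factor, and OE_NC cells had received pcDNA3.1-NC. All libraries came from cells described as bovine precursor adipocytes, and the donor animals are not given. Nothing in the labels states that the replicates of a group were grown separately, so p-values measure only how far these libraries spread, which may be technical.

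Complement is a set of plasma and tissue proteins that mark foreign or damaged surfaces. In the classical pathway the recognition protein C1q carries the proteases C1r and C1s, which SERPING1 (C1 inhibitor) blocks. C3 is the component on which the pathways meet, factor B (CFB) joins it in the alternative pathway convertase, and CD55 speeds the decay of convertases on host cells. PTX3 is a long pentraxin that binds microbes and C1q, and it helps to build hyaluronan matrix together with TNFAIP6 (TSG-6). The liver makes most of the plasma complement proteins, and stromal cells and fat tissue are known sources of several of them.

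Counts assigned to genes ran from 28.9 M to 42.7 M per library. HGFAC mRNA averaged 161 ± 26.4 CPM (counts scaled to a common library size, with TMM factors; mean ± SD, n = 3) in OE and 0.393 ± 0.127 CPM in OE_NC. It averaged 0.658 ± 0.165 CPM in si and 0.830 ± 0.0989 CPM in si_NC, with overlapping libraries (log2 change −0.35 ± 0.27, SE; edgeR adjusted p = 0.512). The stromal transcript COL1A2 averaged 7200 CPM over all libraries and PDGFRA 275 CPM, while DLK1, a classic preadipocyte marker, averaged 0.0689 CPM and CD34 was at 0 in 7 of 12 libraries. ADIPOQ, a product of mature fat cells, averaged 0.0604 CPM and LEP 0.109 CPM. The other listed markers of mature adipocytes were higher. PPARG averaged 16.7 CPM, LPL 15.9 CPM, CD36 13.45 CPM, FABP4 7.10 CPM, PLIN1 1.41 CPM and CIDEC 1.11 CPM.

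Compared per exon length, in RPKM (reads scaled to exon length and library total), PTX3 and TNFAIP6 were the most abundant of the 8 transcripts, with means over the 12 libraries of 6.94 and 6.46 RPKM. C1R and C1S followed at nearly the same level, 3.39 and 3.37 RPKM. By these means the 4 genes stood above the median of tested genes, at percentiles 66.4, 65.1, 52.8 and 52.7. In the interference groups only TNFAIP6 did. PTX3, C1R and C1S lay at percentiles 41.9, 42.9 and 44.4 in si. In si_NC they lay at 45.5, 46.2 and 44.4. PTX3 in si, at 1.89 RPKM, was below TNFAIP6 (8.28 RPKM), C1S (2.20 RPKM) and C1R (2.00 RPKM). Over the 12 libraries CD55 was at 0.912 RPKM, SERPING1 at 0.545 RPKM, CFB at 0.467 RPKM and C3 at 0.371 RPKM. They lay at percentiles 30.1, 23.1, 21.1 and 18.2. The last 3 rested on few reads: counts per library ran from 18 to 64 for SERPING1, from 12 to 101 for CFB and from 42 to 101 for C3, so that their errors are wide.

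**Figure D1:**
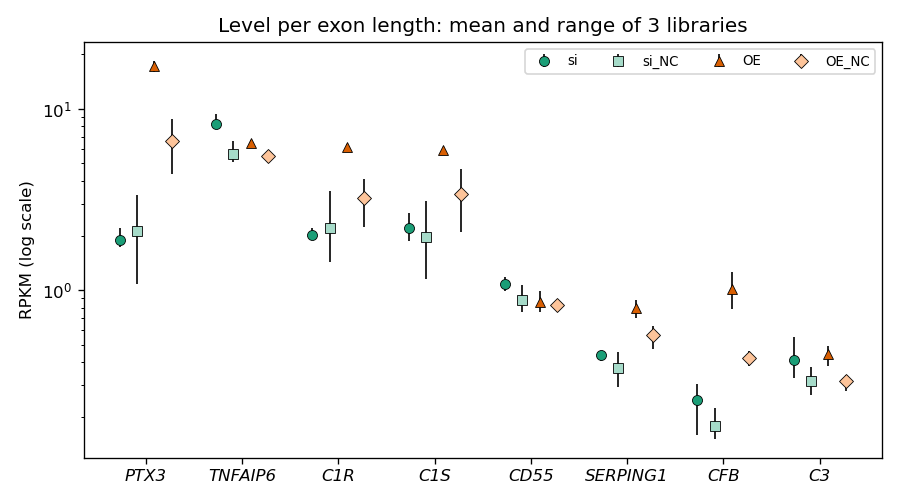
Level of each of the 8 transcripts in RPKM (log axis), with the mean (symbol) and range (line) of 3 libraries for si, si_NC, OE and OE_NC. PTX3 in OE stood highest, CFB in si_NC lowest, and C1R and C1S lay side by side in every group.

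The first comparison asked how the transcripts stood in cells given the HGFAC plasmid. PTX3, CFB and C1R rose in OE, by 2.68-fold, 2.50-fold and 2.00-fold, and 0 members fell. These were 3 of 8 members, where 2.22% of all tested genes were called higher and 2.25% lower (edgeR quasi-likelihood test, Benjamini-Hochberg adjusted p under 0.05 over all 16300 genes). All 8 log2 changes were above 0, with a median of 0.70, against a median of −0.0046 over all tested genes, of which 49.3% were above 0. In 7 members, all but CD55, each OE library lay above each OE_NC library, a separation shown by 17.4% of tested genes. The same 7 had an unadjusted p under 0.05 with a higher level, as did 11.1% of tested genes. As the members were chosen with earlier results of these data known, these shares describe the 8 genes and do not test the set.

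C1R, the protease that activates C1s, lies on the plus strand of chromosome 5 (103376476 to 103387592 by the count table, of a genome build not given in the sources used here). It was at 16.6, 16.9 and 17.6 CPM in OE, against 6.001, 8.64 and 10.96 CPM in OE_NC. The OE libraries were close to each other and all above the highest OE_NC library. The log2 change was 1.00 ± 0.25 (SE; 95% interval 0.46 to 1.53; edgeR adjusted p = 0.0401). Of the exon bases of C1R, 517 of 2731 are shared with LOC112446757 on the other strand, a gene with a mean count of 29.4 against 324 for C1R, and whether counting used strand is not given in the sources used here.

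C1S, the protease that cleaves C4 and C2, lies 20094 bases further on, on the minus strand (103407687 to 103418871), so that both genes point toward each other. Its levels were 16.4, 17.2 and 16.6 CPM in OE, against 5.78, 9.35 and 12.7 CPM in OE_NC. As for C1R, OE was tight, OE_NC was wide, and the groups did not overlap. The log2 change of 0.85 ± 0.28 did not pass the threshold (95% interval 0.27 to 1.44; edgeR adjusted p = 0.082). SERPING1, which inhibits both proteases and lies on chromosome 15 (80849917 to 80863386, plus strand), was at 1.77, 1.42 and 1.60 CPM in OE, against 1.15, 0.910 and 1.22 CPM in OE_NC. Every OE library was above OE_NC by a narrow margin, and the log2 change of 0.55 ± 0.23 did not pass (edgeR adjusted p = 0.158).

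CFB, the serine protease of the alternative pathway convertase, lies on the minus strand of chromosome 23 (27415351 to 27421377), 431 bases from its relative C2 on the same strand. It was at 2.49, 1.97 and 3.11 CPM in OE, against 1.01, 0.910 and 1.11 CPM in OE_NC. All OE libraries were well above the OE_NC libraries. The log2 change was 1.32 ± 0.26 (95% interval 0.77 to 1.87; edgeR adjusted p = 0.0188). C3, whose cleavage products coat surfaces, on chromosome 7 (17774607 to 17810616, plus strand), was at 2.36, 2.56 and 1.97 CPM in OE, against 1.39, 1.69 and 1.61 CPM in OE_NC. The groups did not overlap, and the log2 change of 0.55 ± 0.23 did not pass the threshold (edgeR adjusted p = 0.16).

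PTX3, on the minus strand of chromosome 1 (110158197 to 110164262), had the highest level and the largest fold among the 8 genes. It was at 29.7, 32.2 and 33.9 CPM in OE, against 7.91, 12.1 and 15.8 CPM in OE_NC. The lowest OE library was far above the highest OE_NC library. The log2 change was 1.42 ± 0.26 (95% interval 0.87 to 1.97; edgeR adjusted p = 0.0144). TNFAIP6, which transfers heavy chains of inter-alpha-inhibitor to hyaluronan, lies on chromosome 2 (44746822 to 44763774, minus strand) and was at 9.92, 9.31 and 9.24 CPM in OE, against 8.10, 7.23 and 8.14 CPM in OE_NC. OE was higher without overlap, and the log2 change of 0.28 ± 0.12 did not pass (edgeR adjusted p = 0.179).

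CD55, on the plus strand of chromosome 16 (5231120 to 5279394), was the member whose groups overlapped, at 4.10, 3.82 and 4.93 CPM in OE and 3.93, 3.87 and 4.15 CPM in OE_NC. Its log2 change was 0.10 ± 0.15 (edgeR adjusted p = 0.721), with a 95% interval from −0.21 to 0.42. In these bulk libraries, more RNA per cell and more cells that make it cannot be told apart.

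All 3 calls in OE were lost without some single libraries, with the sign kept. When any 1 of 6 libraries was left out, PTX3 kept a log2 change of 1.18 to 1.65, CFB of 1.15 to 1.46 and C1R of 0.79 to 1.2. PTX3 and CFB lost their calls without OE replicate 2, OE replicate 3, OE_NC replicate 1 or OE_NC replicate 2, and C1R also without OE replicate 1. For PTX3 the lowest change came without OE_NC replicate 1 and the edgeR adjusted p then was 0.0645. In limma on log2(RPKM + 1) C1R was not called (log2 0.79, limma adjusted p = 0.0632) and CFB was called at a log2 change of 0.50 on that scale.

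**Figure D2:**
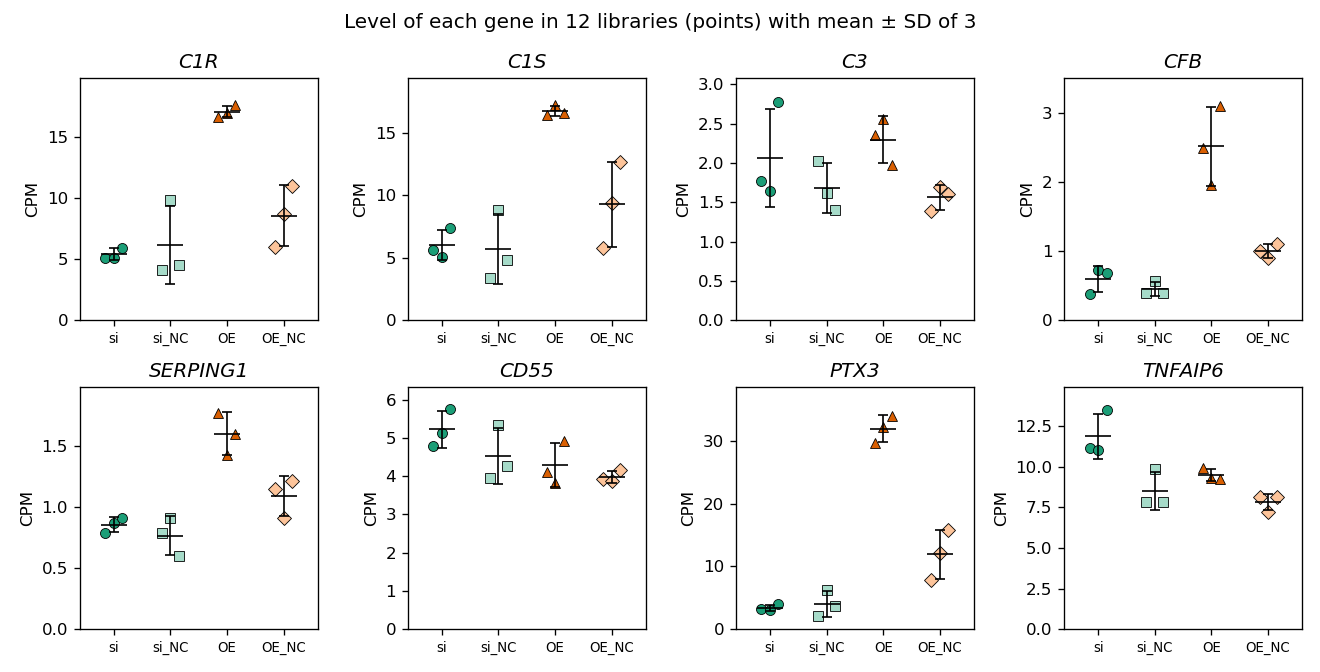
CPM of each gene in the 12 libraries (points; replicates 1 to 3 from left to right within a group) with mean ± SD of 3 libraries, for si, si_NC, OE and OE_NC. For PTX3 the OE points lay between 29.7 and 33.9 CPM, above all other libraries, and for TNFAIP6 the si points stood highest.

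The second comparison asked the same of the interference assay. TNFAIP6 rose in si, 1.39-fold, and 0 members fell; of all tested genes, 0.92% were called higher and 1.62% lower. TNFAIP6 was also the 1 member of 8 with an unadjusted p under 0.05, a level reached by 18.9% of all tested genes. DESeq2 and both limma fits likewise called 1 member. In either direction DESeq2 called 10.5% of all its genes in si and the limma fits 1.97% and 2.01%, against 2.54% in edgeR. CFB and SERPING1 had no adjusted p in DESeq2. The median log2 change of the 8 members was 0.18, with 6 of 8 above 0, against a median of 0.02 and 54% above 0 over all tested genes.

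TNFAIP6 was at 11.1, 10.99 and 13.5 CPM in si, against 7.82, 9.84 and 7.85 CPM in si_NC. All si libraries were above the highest si_NC library, which was replicate 2; 10.2% of tested genes were higher in si without overlap. The log2 change was 0.48 ± 0.12 (95% interval 0.22 to 0.73; edgeR adjusted p = 0.0466). The call held without si_NC replicate 2 (log2 0.59) and was lost without each of the other 5 libraries left out in turn (log2 0.38 to 0.53), and it was lost in a fit of si and si_NC alone (edgeR adjusted p = 0.177). The fit of si and si_NC alone called 8 of its 15266 tested genes (0.0524%), against 2.54% in the fit of all libraries.

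C1R was at 5.11, 5.07 and 5.94 CPM in si and 4.12, 9.84 and 4.54 CPM in si_NC. C1S was at 5.66, 5.09 and 7.40 CPM in si and 3.40, 8.79 and 4.84 CPM in si_NC. PTX3 was at 3.15, 3.11 and 4.02 CPM in si and 2.09, 6.26 and 3.67 CPM in si_NC. In all 3 genes the si libraries lay within the range of si_NC, whose replicate 2 was the highest library and replicate 1 the lowest. That replicate 2 carries the title s_NC2, its group rests on its source label, and its column, named si_NC2, was matched to it by that near-identical name. The log2 changes were −0.19 ± 0.27 for C1R, 0.09 ± 0.30 for C1S and −0.22 ± 0.31 for PTX3 (edgeR adjusted p = 0.748, 0.901 and 0.75). Without si_NC replicate 2 the change of C1R was 0.30 and that of PTX3 0.24, so the data give no direction for either.

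The low members did not separate in si. CFB was at 0.381, 0.731 and 0.688 CPM in si and 0.393, 0.563 and 0.401 CPM in si_NC (edgeR log2 change 0.42 with a 95% interval of −0.28 to 1.12; adjusted p = 0.528). C3 was at 1.77, 1.64 and 2.78 CPM in si and 2.03, 1.62 and 1.40 CPM in si_NC (log2 change 0.29, edgeR adjusted p = 0.538). SERPING1 was at 0.789, 0.868 and 0.908 CPM in si and 0.785, 0.914 and 0.601 CPM in si_NC, the closest pair of groups among the 3 (log2 change 0.16, edgeR adjusted p = 0.781). CD55 was at 4.79, 5.14 and 5.75 CPM in si and 3.96, 5.34 and 4.27 CPM in si_NC, again with si_NC replicate 2 highest in its group (edgeR log2 change 0.21 with a 95% interval of −0.10 to 0.52; adjusted p = 0.473).

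Whether the OE change differed from the si change was tested directly. PTX3 differed, with a log2 difference of 1.64 ± 0.40 (95% interval 0.78 to 2.50; edgeR adjusted p = 0.0231), and was 1 of 8 members called higher, where 4.29% of tested genes were. For C1R the difference was 1.19 ± 0.37 (edgeR adjusted p = 0.059), for CFB 0.90 ± 0.42 (edgeR adjusted p = 0.207) and for C1S 0.76 ± 0.40 (edgeR adjusted p = 0.27), none past the threshold. TNFAIP6, called in si and not in OE, had a difference of −0.20 ± 0.17 (95% interval −0.56 to 0.16; edgeR adjusted p = 0.517), so its changes in the 2 experiments were not shown to differ. The PTX3 difference was 1.17 without si_NC replicate 2 (edgeR adjusted p = 0.0502), and it was not called in limma on log2(RPKM + 0.1) (adjusted p = 0.0806).

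**Figure D3:**
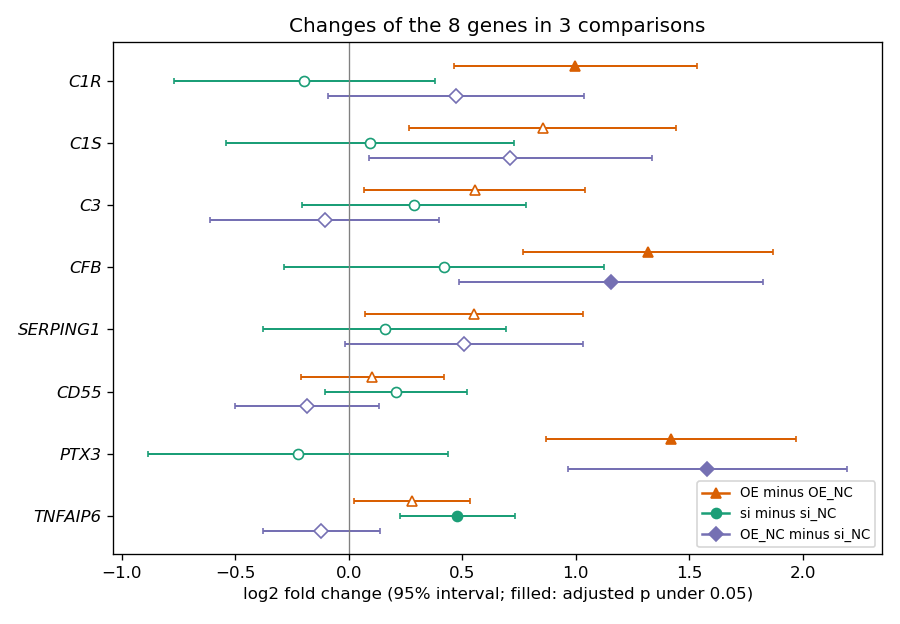
Log2 fold change with 95% interval of each gene for OE minus OE_NC, si minus si_NC and OE_NC minus si_NC; filled symbols have an adjusted p under 0.05. The OE intervals of all genes but CD55 lay above 0, and among them the OE symbols of PTX3, CFB and C1R are filled. The OE and si intervals of CD55 both crossed 0.

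The 2 kinds of control cells were already apart for part of the set. PTX3 in OE_NC stood 2.99-fold above its si_NC level (log2 1.58 ± 0.29, edgeR adjusted p = 0.00221), and CFB 2.23-fold higher (log2 1.16 ± 0.31, edgeR adjusted p = 0.0184). For both genes each OE_NC library was above each si_NC library, as it was for 18.4% of tested genes. These were 2 of 8 members called higher and 0 lower, against 9.49% of tested genes higher and 10.2% lower, and 3 of 8 members had an unadjusted p under 0.05, as did 34.1% of all tested genes. C1S (log2 0.71 ± 0.29, edgeR adjusted p = 0.0999), SERPING1 (0.51 ± 0.25, edgeR adjusted p = 0.161) and C1R (0.47 ± 0.26, edgeR adjusted p = 0.223) were not called, and C3, TNFAIP6 and CD55 had log2 changes of −0.11, −0.12 and −0.18. The PTX3 call held without any 1 of the 6 libraries (log2 1.26 to 2.05), and that of CFB was lost without si_NC replicate 1, si_NC replicate 3 or OE_NC replicate 3. Markers of cell types differed between the controls too: THY1 (log2 1.17, edgeR adjusted p = 0.000151), MSLN (0.87, edgeR adjusted p = 0.0163) and LPL (0.37, edgeR adjusted p = 0.0188) were higher in OE_NC and PPARG was lower (−0.29, edgeR adjusted p = 0.0411). All 6 tested epithelial and mesothelial markers had a change above 0, with a median of 0.68, and 0 of 6 immune and 0 of 6 endothelial markers were called by edgeR (1 and 0 at an unadjusted p under 0.05; DESeq2 called 0 of both, and limma FCER1G and CSF1R). Their part in the levels of PTX3 and CFB was not tested. Experiment, kind of nucleic acid and any batch cannot be told apart here, and OE_NC also serves as the control of OE.

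Ordered by group mean in CPM, C1R, C1S, CFB, SERPING1 and PTX3 had OE highest, OE_NC next and both interference groups below. In these 5 genes each OE library was above all 9 other libraries, where 5.1% of tested genes showed that pattern, and the highest of the 9 was OE_NC replicate 3 each time. The step between OE_NC and si_NC held without overlap for PTX3 and CFB, and si and si_NC overlapped in all 5. C3 ran OE, si, si_NC, OE_NC, with si replicate 3 (2.78 CPM) above every OE library. TNFAIP6 ran si, OE, si_NC, OE_NC, and CD55 si, si_NC, OE, OE_NC, where neighbouring groups of CD55 overlapped.

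Spread between replicates also followed a common pattern in C1R, C1S and PTX3. Within OE_NC the highest library exceeded the lowest 1.83-fold in C1R, 2.19-fold in C1S and 1.99-fold in PTX3, with replicate 3 highest and replicate 1 lowest in all 3. Within si_NC the ratios were 2.39, 2.58 and 2.99, with replicate 2 highest and replicate 1 lowest. In OE they were 1.06, 1.05 and 1.14. A tight OE beside wide controls was not particular to these 3 genes. The SD of PDGFRA was 7.04 CPM in OE, 42.6 CPM in OE_NC and 45.8 CPM in si_NC, and that of STAT3 1.22, 14.5 and 17.7 CPM. CFB went the other way, with an SD of 0.573, 0.0986 and 0.0959 CPM. The share of all tested genes with such a spread was not computed. Mitochondrially encoded transcripts took 1.31% to 1.37% of counts in OE, 1.72% to 1.80% in OE_NC, 2.01% to 2.26% in si and 1.58% to 1.70% in si_NC, and their part in these levels was not tested.

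The ratio of C1R to C1S on the RPKM scale stayed between 0.823 and 1.24 over the 12 libraries. The ratio of PTX3 to C1R was 2.65, 2.82 and 2.86 in OE and 1.95, 2.08 and 2.13 in OE_NC, and between 0.753 and 1.2 in the 6 si and si_NC libraries. PTX3 thus stood higher relative to C1R in the plasmid libraries than in the interference libraries, without overlap, and highest in OE.

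**Figure D4:**
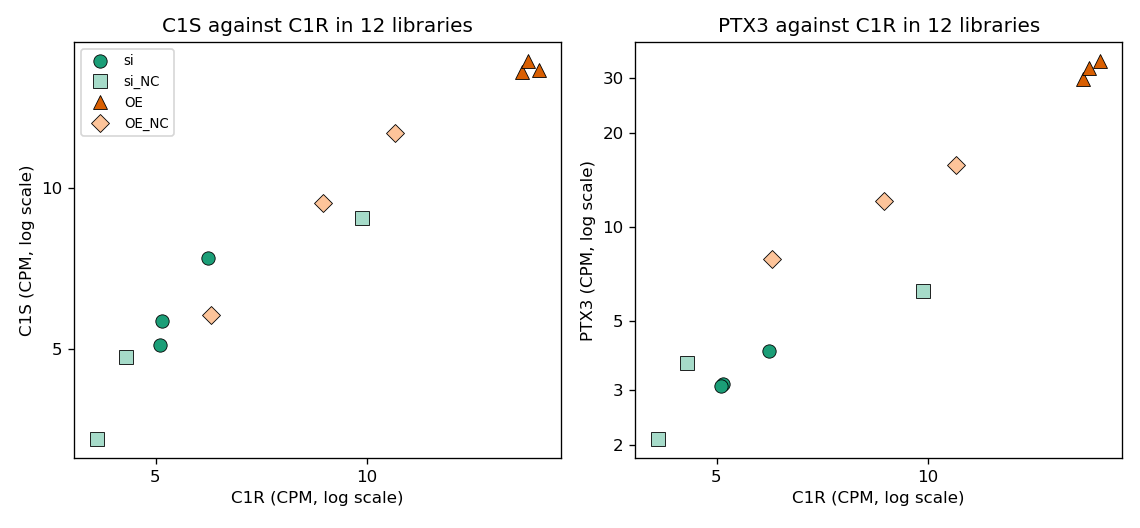
CPM of C1S (left) and PTX3 (right) against C1R in the 12 libraries, both axes on a log scale, with 1 point per library. C1S followed C1R in every group, and PTX3 stood higher for a given C1R level in OE and OE_NC than in si and si_NC.

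Over the 12 libraries, which share their group means, log2 CPM of C1R correlated with C1S at a Pearson r of 0.979 and with PTX3 at 0.96, and CFB with SERPING1 at 0.95. These are descriptions over 12 points in 4 groups. TNFAIP6 and CD55 formed another pair (r = 0.794), and C3 correlated with the other members at 0.154 to 0.537. Among 8832 other tested genes with a symbol and a mean of at least 5 CPM, the genes most like C1R were C1S, PCOLCE (0.975), an enhancer of procollagen cleavage, and SGCB (0.966), a sarcoglycan. Those most like C1S were PCOLCE (0.991), TMEM63A (0.986) and SYT4 (0.98). For PTX3 they were the cytochrome CYP3A4 (0.978), SH3BGR (0.977) and SLC24A1 (0.975). CYP3A4 averaged 17.0 CPM in OE, 6.65 CPM in OE_NC, 1.56 CPM in si and 1.16 CPM in si_NC, the same order of experiments as PTX3.

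For CFB the most alike genes were CASK (0.975), CSNK1A1 (0.959) and FHL1 (0.953), and for SERPING1 they were RAB28 (0.943), CASK (0.935) and ZNF568 (0.934). For C3 they were CREB5 (0.891), CACNA2D1 (0.891) and BCLAF3 (0.881), and for TNFAIP6 TRABD2B (0.902), ULK2 (0.901) and GPD2 (0.896). CD55 was most like SLFN11 (0.953), FAM57A (0.909) and TGFBR2 (0.901), a receptor of TGF-beta.

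Other complement genes were read from lists of known pathway members. Of the C1q chains that carry C1R and C1S, C1QA was at 0 in 9, C1QB in 7 and C1QC in 10 of 12 libraries, and none was tested. Of 4 other tested recognition and initiation genes 0 were called in OE and 0 in si by edgeR. DESeq2 called 1 in OE, COLEC12, and 0 in si, where it called 11.2% and 10.5% of all its genes. In edgeR 1 of the 4 had an unadjusted p under 0.05 in each experiment. Over all tested genes that share was 22.9% in OE and 18.9% in si, in either direction. COLEC12, a scavenger receptor with a collectin domain, averaged 3.02 CPM in OE and 1.87 CPM in OE_NC (log2 0.69 ± 0.21, edgeR adjusted p = 0.0662). The difference of its OE and si changes was called (log2 1.10 ± 0.30, edgeR adjusted p = 0.035). MASP2, the most abundant of the 4, shares 5128 of its 7253 exon bases with TARDBP on the other strand, so its counts are uncertain.

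Of 3 other tested central components (C4A, CFP and C2), 2 tested terminal components (C9 and C8G) and 1 tested receptor gene (ITGAX), 0 were called in either experiment by edgeR, 0 had an unadjusted p under 0.05 and 0 of those with an adjusted p in DESeq2 or limma were called. C4A, the substrate of C1S, averaged 1.77 CPM in OE and 1.15 CPM in OE_NC (log2 0.63 ± 0.37, edgeR adjusted p = 0.338).

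Among 9 other tested pentraxins and hyaluronan matrix partners 0 were called in OE by edgeR, and DESeq2 called CD44 lower. Of the 9, 2 had an unadjusted p under 0.05 in OE, against 22.9% of all tested genes in either direction. FGF2, a growth factor that PTX3 binds, fell in si. FGF2 averaged 5.44 ± 0.707 CPM in si and 9.31 ± 0.673 CPM in si_NC (log2 −0.78 ± 0.13, edgeR adjusted p = 0.00859). The call was lost in a fit of si and si_NC alone (edgeR adjusted p = 0.0847), which called 0.0524% of its tested genes. DESeq2 also called VCAN lower in si. FGF2 shares 1122 of its 6594 exon bases with NUDT6 on the other strand. Of 10 tested surface and soluble pattern recognition genes LGALS3, galectin-3, was called in both experiments in opposite directions. It averaged 132 ± 16.1 CPM in si and 101 ± 9.09 CPM in si_NC (log2 0.39 ± 0.10, edgeR adjusted p = 0.0469), and 88.3 ± 7.92 CPM in OE and 119.5 ± 3.63 CPM in OE_NC (log2 −0.44 ± 0.10, edgeR adjusted p = 0.0286). The OE change of LGALS3 was −0.21 with an offset for exon length and was then not called (edgeR adjusted p = 0.15), and its si call was lost with the compared groups alone (edgeR adjusted p = 0.162), with the replicate number as a block (0.063) and in limma on log2(RPKM + 1) (limma adjusted p = 0.0517). The si call of LGALS3 held in 2 of 6 fits without a single library and its OE call in 1 of 6 (without OE_NC replicate 3), with the signs kept, and 392 of its 1049 exon bases are shared with SCN3B on the same strand.

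The list of inducers and transcription factors of acute phase genes had 21 tested genes, which were cytokine receptors, transcription factors and regulators or targets of NF-kB. In OE 3 of the 21 rose and 0 fell, where 2.22% of all tested genes were called higher. Their median log2 change was 0.27 with 17 of 21 above 0, against −0.0046 and 49.3% over all tested genes. The list was chosen with earlier results of these data known, so its shares describe it and do not test it. DESeq2 called 5 (RELB and STAT3 added, both higher) and limma 2 (IRF1 and BIRC3). Over all genes in either direction DESeq2 called 11.2% in OE, edgeR 4.47% and the limma fits 3.35% and 2.93%. IRF1, which drives interferon-induced genes, averaged 26.9 ± 1.96 CPM in OE and 13.0 ± 0.823 CPM in OE_NC (log2 1.05 ± 0.12, edgeR adjusted p = 0.00081). BIRC3, an inhibitor of apoptosis induced through NF-kB, averaged 39.6 ± 1.56 CPM in OE and 23.9 ± 0.902 CPM in OE_NC (log2 0.73 ± 0.07, edgeR adjusted p = 0.000418). Both stayed called without any 1 of the 6 libraries. NFKBIZ, a nuclear partner of NF-kB, averaged 26.8 ± 2.21 CPM in OE and 18.6 ± 2.78 CPM in OE_NC (log2 0.52 ± 0.13, edgeR adjusted p = 0.0404) and lost its call without each of the 6, holding it under 9 of 12 other settings. In si 0 of the 21 were called by edgeR, DESeq2 or limma, with 3 at an unadjusted p under 0.05 in edgeR. Transcripts of the listed cytokines, none of which was tested and which are named here after their values were seen, were close to 0: IL1B averaged 0.0214 CPM, IL6 0.135 CPM and TNF 0.144 CPM over the 12 libraries.

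**Figure D5:**
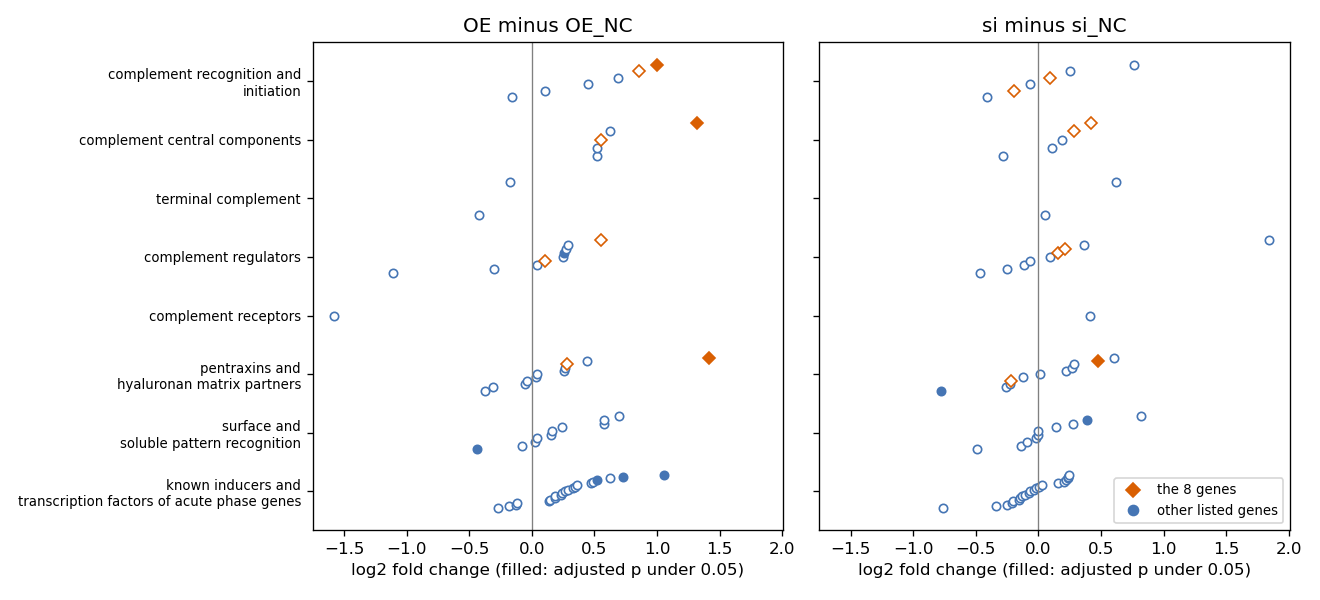
Log2 fold change of every tested gene of the 8 lists in OE minus OE_NC (left) and si minus si_NC (right); diamonds are the 8 genes, circles other listed genes, and filled symbols have an adjusted p under 0.05. In OE the highest filled symbols are PTX3 (1.42) and CFB (1.32), and among circles IRF1 (1.05).

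Markers of other cell types were read beside these levels. Of 9 immune markers 6 were tested and 0 were called in OE or si by edgeR (1 in each at an unadjusted p under 0.05); DESeq2 called 0, and limma with 1 added to the RPKM called CSF1R in si. The summed level of the immune markers was 8.50 to 10.99 CPM in OE and 10.9 to 11.1 CPM in OE_NC. It was 10.2 to 11.5 CPM in si and 9.62 to 10.9 CPM in si_NC. The 6 tested markers, CD68, CD163, CSF1R, CD79A, FCER1G and AIF1, were at 0 in 0 of 12 libraries. CD68 and CD163 had the highest means among the 9. The untested PTPRC, which marks all leukocytes, and CD3E were each at 0 in 8 of 12 libraries, and TYROBP in 9. Endothelial markers summed to 59.2 to 65.3 CPM in OE and 64.1 to 84.0 CPM in OE_NC, with 0 of 6 called by edgeR and 0 at an unadjusted p under 0.05. Most of that sum was FLT1, which averaged 64.2 CPM over the 12 libraries. VWF averaged 1.47 CPM, PECAM1 0.365 CPM and CDH5 0.318 CPM. Epithelial and mesothelial markers summed to 10.5 to 12.5 CPM in OE and 9.86 to 11.8 CPM in OE_NC with 0 of 6 called by edgeR or DESeq2 and 0 at an unadjusted p under 0.05, and to 9.66 to 11.2 CPM in si and 6.64 to 8.83 CPM in si_NC, where MSLN was called higher beside TNFAIP6. In si all 6 had a change above 0, with a median log2 of 0.83. Of these 6, 3 had an unadjusted p under 0.05, against 18.9% of all tested genes. Limma also called MSLN in si, and DESeq2 called 0 of the 2 with an adjusted p. Stromal markers summed to 18720 to 20010 CPM in OE and 14530 to 19330 CPM in OE_NC, and to 18730 to 23730 CPM in si and 13900 to 18930 CPM in si_NC, where THY1 was called higher. DESeq2 and both limma fits called VIM and THY1 higher in si. In si 5 of 10 tested stromal markers had an unadjusted p under 0.05 in edgeR. In OE 0 of 10 tested stromal markers were called by edgeR, and DESeq2 called NT5E higher. Of the 10, 4 had an unadjusted p under 0.05, against 22.9% of all tested genes in either direction. Of 6 tested mature adipocyte markers 0 were called by edgeR in OE. Among them 1, PPARG, had an unadjusted p under 0.05, and DESeq2 and limma called it lower. The part of these markers in the levels of the 8 genes was not tested.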

How the data were processed

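Per the labels, polyA RNA from a TRIzol extract went into stranded libraries. Raw counts of reads per gene and RPKM values were deposited by the authors; fastp 0.23.0 and featureCounts of Subread 1.5.1 are named by the submitters' processing notes, and the aligner, build, strand setting and handling of multiply mapped reads were not given in the sources used here. Each deposited RPKM equalled counts divided by exon length and library total to a relative difference of 6.59e-14. Groups came from the sample titles, or for the sample titled s_NC2 from its source label; the column si_NC2 was matched to it as si_NC replicate 2, since no other title resembles that name without a column of its own. With that, 0 columns were left unmapped. The count table holds 2 entries that name no gene, with 0.0868% to 0.116% of counts, which were left out. Between 66.2% and 69.3% of nonzero counts were even, and halved counts were tried.

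Tests on the counts used edgeR 4.0.16 (R 4.3.3) with TMM scaling and filterByExpr (minimum count 10, minimum total 15), then quasi-likelihood F tests from 1 model of all 12 libraries (a mean per group, 8 residual degrees of freedom). A gene was called at a Benjamini-Hochberg adjusted p under 0.05. OE was set against OE_NC, si against si_NC, the OE change against the si change, and OE_NC against si_NC. The procedure was tested on simulated data. CPM are scaled by the same factors. Errors from counting are included in the model, and depth limits the low genes most.

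Alternatives were DESeq2 1.42.0 (size factors, and its Wald test), library totals, no filter on low counts, at least 5 CPM in 3 libraries, the compared groups alone, replicate number as a block, limma 3.58.1 on log2 RPKM with 1 or 0.1 added, halved counts, an offset for exon length (natural spline, 4 degrees of freedom), and leaving out libraries. Same-numbered libraries did not deviate together, so they are not treated as pairs.

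Genes named are the 8 members, HGFAC, the called genes of each list (or its most abundant ones) and the 3 genes most correlated with each member (log2 CPM, prior count 2). The members and lists were chosen with earlier results of these data known. All 8 members were matched by symbol in a RefSeq gene table of assembly ARS-UCD2.0, used for chromosome names only. Of 166 listed symbols, 164 are in the count table. No protein or promoter sequence is shown. The list of other complement regulators is not reported here.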

Additional observations from a re-analysis of the deposited data

Results flagged for a closer look

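PTX3 stood out because its change in OE and its change in si differed by a direct test of the difference. The log2 change in OE minus that in si was 1.64 ± 0.40 (SE, 3 libraries per group, edgeR adjusted p = 0.0231), that is, 1.42 for OE minus OE_NC set against −0.22 for si minus si_NC. All 3 OE libraries were above all 3 OE_NC libraries, while si lay within the range of si_NC. Without any 1 of the 12 libraries the difference ran from 1.17 to 1.96, and the call was lost in 6 of these 12 fits (without si replicate 1, si replicate 2, si_NC replicate 2, OE replicate 2, OE replicate 3 or OE_NC replicate 2).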

How the results depend on the processing

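Members called in OE numbered 2 to 4 under the other settings, against 3, and 0 to 4 when 1 library was left out. In si the count was 1, and 0 with the compared groups alone, with the replicate block and with the length offset, and 0 to 1 when 1 library was left out. For the difference it was 1, and 2 with the DESeq2 Wald test, 3 without a filter, 2 with the replicate block, 2 with limma on RPKM + 1, 0 with limma on RPKM + 0.1, 2 with the length offset, and 0 to 2 when 1 library was left out. For OE_NC minus si_NC it was 2, and 4 without a filter, 1 with the filter of 5 CPM (which removes CFB), 4 without si replicate 3 and si_NC replicate 2 together, and 1 to 4 when 1 library was left out. The fit of si and si_NC alone called 0.0524% of its tested genes, against 2.54% in the main fit. DESeq2 called 13.3% of its genes for the difference, against 8.41% in the main fit. HGFAC in OE kept a log2 change of 8.46 to 8.91 when 1 library was left out. Of the single-gene values, 628 kept their side of the threshold and direction, 66 lost a call, 23 gained one and 11 changed sign, all 11 in changes that were not called. Those were TNFAIP6 in the difference (0.032 with the length offset), C1S in si (−0.079 without si replicate 3, −0.17 without si_NC replicate 1 and −0.016 without si_NC replicate 3; range −0.17 to 0.54 when 1 library was left out), C3 between controls (0.049 without si_NC replicate 1; range −0.23 to 0.049), PTX3 and C1R in si (0.24 and 0.30 without si_NC replicate 2, ranges −0.54 to 0.24 and −0.42 to 0.30; 0.11 and 0.22 without it and si replicate 3), C3 in si (−0.020 without that pair) and CD55 in OE (−0.0043 without OE replicate 3; range −0.0043 to 0.17). The cause was not tested. The replicate numbers are shared by label but not by the data: deviations of same-numbered libraries correlated at 0.0921, −0.257 and −0.191 in the interference experiment and at 0.0446, −0.00999 and −0.0147 in the other; with the block 4 members were called in OE (C1S added) and 2 between controls. Low counts limit CFB, C3 and SERPING1.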
